A study of Mustela putorius furo with 8 samples.

Results

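The epithelial sodium channel is a heteromer of an alpha, a beta and a gamma subunit, and the sodium pump pairs a catalytic alpha subunit with a beta subunit. The results below concern 4 of the 27912 genes counted in ferret pancreatic ductal epithelial (PDE) cultures: SCNN1A, SCNN1B and SCNN1G, which encode the 3 channel subunits, and ATP1B1, which encodes the beta1 subunit of the pump. They were chosen by symbol, with earlier results of these data known. Each had at least 30 unique molecular identifiers (UMIs, 1 per captured RNA molecule) over all libraries, with totals of 66206, 780, 4855 and 257665. PDE cells from newborn ferrets, 1 to 3 days old, had been passaged 10 times and then kept on porous inserts with air above and medium below (air-liquid interface, ALI). WT cultures carried functional CFTR, the epithelial chloride and bicarbonate channel, and CF cultures had the genotype CFTR KO/KO. Single-cell 3′ libraries were made at day 2, 5, 7 and 9, with 1 library for each genotype and day and, by the study's account, cells of 3 animals of a genotype pooled. The labels do not say which animal a cell came from.

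In absorbing epithelia sodium enters the cell through the channel in the apical membrane and leaves it through the pump in the basolateral membrane. The alpha subunit is the one that the channel needs most, since beta and gamma carry little current without it. Proteases, prostasin among them, activate the channel by cleaving its subunits. The channel and CFTR share the apical membrane, and their balance sets the volume of liquid on the airway surface, where loss of CFTR leads to dehydration. Beta1 escorts the catalytic subunit to the plasma membrane and takes part in cell adhesion.

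On the ferret assembly ASM1176430v1.1, RefSeq placed the protein-coding gene SCNN1A at positions 10780437 to 10805669, SCNN1B at 1152450 to 1208613, SCNN1G at 1064428 to 1091028 and ATP1B1 at 522081 to 544449. The gene table used names no chromosome for them. SCNN1G and SCNN1B ended and began 61421 bases apart in these positions if they lie on 1 sequence. Under the same condition USP31 overlapped the start of SCNN1G by 706 bases, NME7 overlapped ATP1B1 by 187 bases, and the non-coding LOC101671123 (333 UMIs) and LOC123389871 (39 UMIs) lay within SCNN1B. The non-coding LOC123394100 (2086 UMIs) lay within ATP1B1, and LOC123394099 (3 UMIs) overlapped it by 457 bases. Reads in such overlaps could belong to either gene. No sequence of these genes was printed because no sequence table was at hand.

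Retained cells numbered 4634 to 6224 in the WT and 1607 to 4499 in the CF libraries, and their UMIs summed to 82961927 to 114585136 and to 34735952 to 102328589. The median retained cell held 14949 to 16862 UMIs in WT and 17833 to 23427 in CF, and 411 of the 1607 cells of CF day 7 held under 3000 UMIs. Median mitochondrial shares were 6.63% to 10.7% in WT and 5.65% to 7.04% in CF. At most 14 barcodes were shared by any pair of libraries. CFTR itself had 6.57 to 29.5 UMIs for each 1000000 UMIs of the library (counts per 1000000, CPM) in WT and 2.502 to 11.4 CPM in CF, with less in CF on each day. The study's methods describe the KO/KO animals as lacking CFTR mRNA, yet 256 to 621 CFTR UMIs were counted in each library labelled CF. Which part of the transcript these UMIs came from was not examined, so CFTR does not settle the labels, and CF below means the libraries labelled so. The duct markers EPCAM, CDH1, KRT8, KRT18 and KRT19 were at 88.5 CPM or more in every library, while SOX9 reached 11.8 CPM at most. The lists of endocrine, endothelial and enzyme-making acinar genes summed to at most 0.266 CPM in any library. A list of 3 immune genes summed to 3.89 to 9.31 CPM in WT and to 4.43 to 20.9 CPM in CF. Nearly all of that was CD68, as PTPRC and CD3E were at most 0.0198 and 0.0140 CPM. Of 3 ionocyte genes, FOXI1 had no UMI in any retained cell, ASCL3 was at most 0.0236 CPM, and the proton pump gene ATP6V1G3 was at 2.34 to 8.40 CPM in WT and 13.4 to 19.0 CPM in CF. A list of fibroblast and muscle genes summed to 3.11 to 7.49 CPM in WT and to 1.85 to 47.2 CPM in CF, and CF cluster 11, led by COL1A1 and ACTA2, was at 1.97 CPM of SCNN1A and, the lowest in CF, 108 CPM of ATP1B1.

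One difference within WT touches every comparison below. SOX2, a foregut transcription factor, was at 50.6 to 205 CPM in 29 WT clusters with 16121 cells, at 0.806 to 4.87 CPM in the other 12 with 5479 cells, and at no more than 1.08 CPM in all 30 CF clusters. The WT cells of the SOX2-low clusters made up 14.3%, 33.8%, 27.5% and 27.9% of the library at day 2, 5, 7 and 9. Whether this split follows the pooled animals was not tested, since cells are not tied to animals in the labels. Library levels of the 4 members are therefore also given with the WT cells of the SOX2-low clusters alone, while those of other genes are given for whole libraries. The SOX2-low WT cells held another mixture of the authors' cell classes than the CF libraries, mostly ductal and without centroacinar progenitors. Intervals are 95% intervals for counting error only (exact Poisson for a level, exact conditional binomial for a ratio, exact Clopper-Pearson for a share), and with 1 library for each genotype and day no test was run.

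SCNN1A was higher at each later day in WT and lower at each later day in CF, so that the order of the genotypes turned between day 5 and day 7. In WT it was at 62.1 CPM at day 2 (60.7 to 63.6), 88.3 at day 5 (86.5 to 90.2), 94.995 at day 7 (92.9 to 97.1) and 209 at day 9 (206 to 212). In CF it was at 112 CPM (110 to 114), 97.5 (95.2 to 99.8), 81.8 (78.8 to 84.9) and 66.1 (63.9 to 68.4) on the same days. No pair of intervals of the same day overlapped. CF was 1.80-fold higher than WT at day 2 (1.75 to 1.86) and WT was 3.16-fold higher than CF at day 9 (3.04 to 3.28), with ratios of CF to WT of 1.104 and 0.861 at day 5 and 7. The small day 5 difference (0.14 on the log2(CPM + 1) scale) turned to -0.13 when each cell was weighted alike. Most of the WT rise fell between day 7 and day 9, a 2.20-fold step (2.14 to 2.26). From day 2 to day 9 SCNN1A rose 3.36-fold in WT (3.27 to 3.46), while in CF day 2 exceeded day 9 1.69-fold (1.63 to 1.76). Of 15921 genes, 0.358% were at least 1.5-fold higher at day 9 in WT and at least 1.5-fold lower in CF. This limit is laxer than the 2-fold limit used below, which SCNN1A in CF did not reach (-0.75 on the log2(CPM + 1) scale). The share is thus no measure of how unusual SCNN1A was. In a sum over a library, fewer cells of a type and less RNA per cell cannot be told apart.

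The SCNN1A order at day 7 and day 9 turned when the SOX2-high WT cells were left out. The WT cells of the SOX2-low clusters had 21.2, 6.98, 13.1 and 40.4 CPM at day 2, 5, 7 and 9, under the CF level on each of the 4 days. CF was then 5.27-fold, 14.0-fold, 6.23-fold and 1.64-fold higher. These ratios do not set like mixtures of cells against each other. By the authors' classes, described below, 849 of the 892 SOX2-low cells at day 2 and 1306 of the 1510 at day 9 were ductal. None was a centroacinar progenitor, a class that held 35.4%, 47.8%, 53.0% and 26.8% of the CF SCNN1A UMIs at day 2, 5, 7 and 9. WT cells of the SOX2-high clusters had 68.1, 157, 138 and 283 CPM. Between day 2 and day 9 the SOX2-low cells went up 1.90-fold (1.67 to 2.16) and the SOX2-high cells 4.15-fold (4.03 to 4.27).

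SCNN1B, the beta subunit, was the least counted member and rose in both genotypes. Its 11 UMIs at day 2 in WT gave 0.0960 CPM (0.0479 to 0.172), and 158, 161 and 178 UMIs at day 5, 7 and 9 gave 1.56, 1.94 and 2.10 CPM. In CF, 17, 113, 75 and 67 UMIs gave 0.166, 1.58, 2.16 and 1.34 CPM. Most of the rise fell between day 2 and day 5, by 16.3-fold in WT (8.85 to 33.2) and by 9.52-fold in CF (5.69 to 16.9). The genotypes differed little: the interval of the CF to WT ratio held 1 at day 2, 5 and 7, and at day 9 WT was 1.57-fold higher (1.18 to 2.11). Against the WT cells of the SOX2-low clusters the picture was alike, with 1 inside the interval at day 2, 5 and 7 and WT 1.503-fold higher at day 9 (1.03 to 2.19). Smaller differences than these intervals allow were not detectable at this depth.

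SCNN1G, the gamma subunit, was higher at each later day than at day 2 in both genotypes, and it was higher in CF on each day. It was at 0.751, 8.07, 7.44 and 9.38 CPM in WT and at 2.69, 13.7, 19.1 and 12.4 CPM in CF at day 2, 5, 7 and 9. CF exceeded WT 3.58-fold at day 2 (2.80 to 4.62), 1.70-fold at day 5 (1.55 to 1.87), 2.57-fold at day 7 (2.30 to 2.88) and 1.32-fold at day 9 (1.18 to 1.47). The increase from day 2 to day 5 was 10.8-fold in WT (8.61 to 13.6) and 5.11-fold in CF (4.47 to 5.87). Against the WT cells of the SOX2-low clusters, which had 4.49, 15.6, 15.5 and 18.2 CPM, the higher level in CF was left at day 7 alone, at 1.24-fold (1.095 to 1.398). At day 2, 5 and 9 these WT cells were above CF by 1.67-fold, 1.13-fold and 1.47-fold.

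ATP1B1, the pump's beta1 subunit, was lowest in WT at day 2, and its levels in the genotypes drew together over time. WT had 146 CPM at day 2 (144 to 148), then 449, 395 and 425 at day 5, 7 and 9. CF had 415 CPM at day 2, then 629, 479 and 453. The CF to WT ratio went from 2.84 (2.79 to 2.89) to 1.399, 1.21 and 1.07 (1.05 to 1.08). Almost all of the WT rise came between day 2 and day 5, 3.08-fold, against 1.52-fold in CF. The day 9 difference of 0.09 on the log2(CPM + 1) scale changed sign with the scaling of the libraries, to -0.035 with TMM factors and -0.011 with DESeq2 size factors. The WT cells of the SOX2-low clusters had 404, 596, 550 and 497 CPM, and CF stood to them at ratios of 1.03 (0.999 to 1.05), 1.05, 0.870 and 0.911. In the SOX2-high WT cells the level was 108 CPM at day 2 and 393 CPM at day 9.

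**Figure D1:**
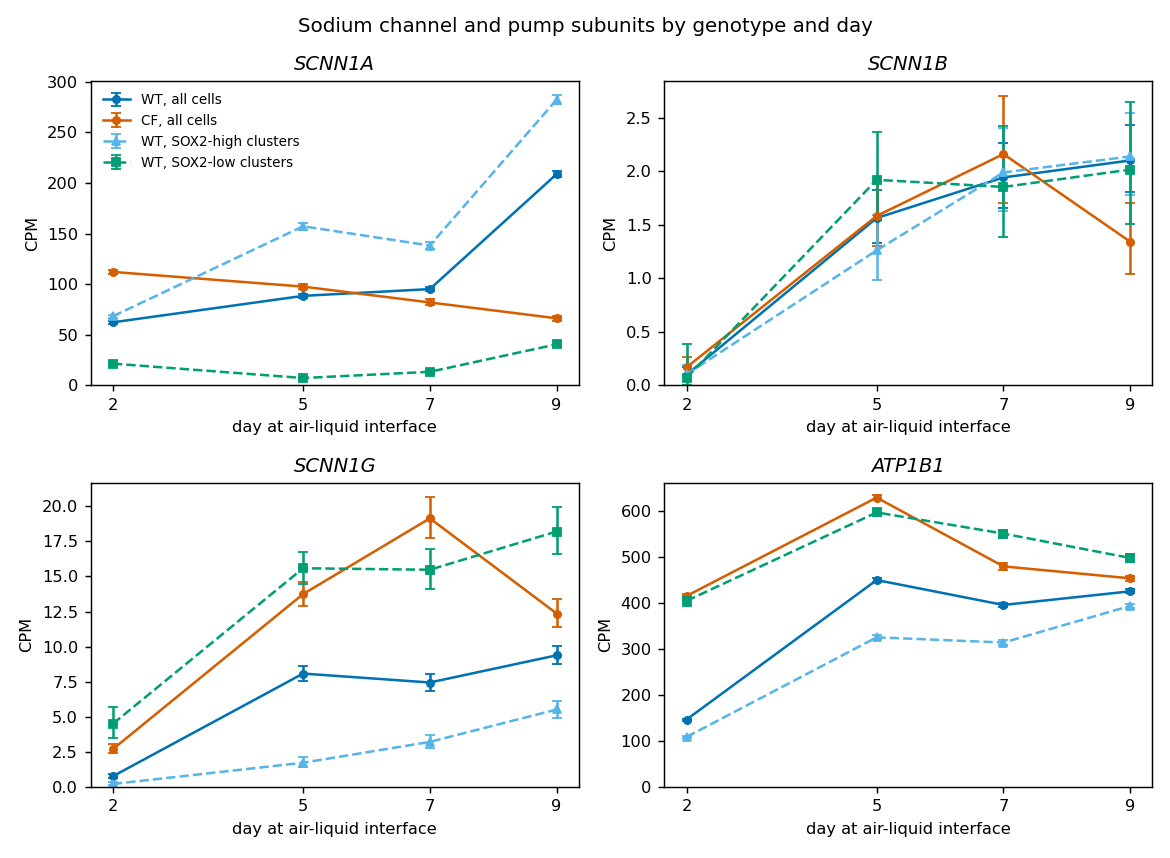
Level of the 4 members (CPM, linear axes from 0) by day at the air-liquid interface for all WT cells, all CF cells and the WT cells of SOX2-high and SOX2-low clusters, with bars for 95% Poisson intervals of 1 library each. SCNN1A of all WT cells ends at 209 CPM and that of CF cells at 66.1 CPM, while for ATP1B1 the CF line (415 CPM at day 2) runs near the SOX2-low WT line (404 CPM).

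On the log2(CPM + 1) scale, which understates changes near 1 CPM, a gene was counted as apart when the groups differed at least 2-fold. At day 2, 2 of the 4 members, SCNN1G (1.07) and ATP1B1 (1.499), were at least 2-fold higher in CF, as were 3.59% of the 15921 genes with at least 30 UMIs, and none was lower, beside 3.83% of genes. At day 5 none of the 4 was apart in either direction, beside 2.15% of genes higher and 4.13% lower in CF. At day 7 SCNN1G (1.26) was higher in CF, with 4.47% of genes, and none was lower, beside 2.95%. At day 9 SCNN1A (-1.64) was lower in CF, with 3.42% of genes, and none was higher, beside 3.23%. None was apart in 1 direction on all 4 days, beside 0.98% of genes higher and 1.31% lower. From day 2 to day 9, 4 of 4 were at least 2-fold higher in WT (7.36% of genes) and 2 of 4, SCNN1B (1.00) and SCNN1G (1.86), in CF (6.04% of genes), so that both subunits rose in both genotypes (3% of genes). None of the 4 was at least 2-fold lower at day 9, beside 4.77% of genes in WT and 2.5% in CF. SCNN1B in CF fell short of 2-fold at 0.91 with TMM factors and 0.93 with DESeq2 size factors, and with TMM factors SCNN1A in CF (-1.02) was past it downwards. With a pseudocount of 5 SCNN1B was at 0.48 in WT and 0.295 in CF, so that 3 of 4 members were then at least 2-fold higher in WT. With that pseudocount SCNN1G also fell short of 2-fold between the genotypes at day 2 and day 7. The TMM and DESeq2 factors moved the median gene by -0.14 and -0.12 for CF day 9 against day 2 and by -0.13 and -0.10 for CF against WT at day 7.

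The proportions of the subunits' UMIs changed with these levels. Since 3′ counts of different genes are not levels per length, the shares are compared between libraries and not between genes. SCNN1G held 1.19% of the UMIs of the 3 channel subunits in WT at day 2 (0.955% to 1.47%) and 8.24%, 7.13% and 4.26% at day 5, 7 and 9. In CF it held 2.34%, 12.2%, 18.6% and 15.5%, above the whole WT library on each day. This order turned against the WT cells of the SOX2-low clusters, where SCNN1G held a larger share than in CF on each day. Those cells had 4.49, 15.6, 15.5 and 18.2 CPM of SCNN1G beside 21.2, 6.98, 13.1 and 40.4 CPM of SCNN1A. ATP1B1 held 30.7% of the UMIs of ATP1B1 and ATP1B3, the other beta subunit counted, in WT at day 2 (30.3% to 31.1%), and 68.7%, 68.3% and 78.1% later. In CF its share was 59.8%, 76.2%, 72.8% and 76.6%. The beta subunits of the pump thus changed in proportion in both genotypes, as ATP1B3, whose product also pairs with the catalytic subunit, went from 330 to 119 CPM in WT and from 279 to 139 CPM in CF.

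The authors had assigned each cluster to a class (ductal, centroacinar, centroacinar progenitor and smaller acinar and proliferating classes), with WT and CF clustered apart. Centroacinar cells line the end of the duct inside the acinus. Levels by class are from the 36 of 41 WT and 22 of 30 CF clusters that passed a check on marker genes and depth, and shares are from every cluster. In both genotypes every kept centroacinar progenitor cluster had over 100 CPM of SCNN1A. Across those with 50 or more cells, it ranged from 119 to 353 CPM in 6 WT clusters and from 143 to 272 CPM in 4 CF clusters. Ductal and CF centroacinar clusters mostly lay lower. The median was 6.03 CPM over 18 WT ductal clusters, 47.9 over 6 CF ductal clusters and 4.39 over 10 CF centroacinar clusters. The 6 WT centroacinar clusters ran from 5.82 to 541 CPM, and cluster 16, the highest of all clusters, was led by the immunoglobulin receptor gene PIGR among others.

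Within the progenitor class the genotypes were closest in SCNN1A at day 7, and CF was above WT at day 2 alone. At day 2 CF had 273 CPM and WT 230, at day 5 205 and 285, at day 7 219 and 234 and at day 9 211 and 330, with CF to WT ratios of 1.19 (1.13 to 1.24), 0.718 (0.683 to 0.755), 0.936 (0.881 to 0.994) and 0.641 (0.595 to 0.689). At day 2 nearly all of the class came from WT cluster 13 (95.9%) and CF cluster 4 (99.8%), and at day 9 WT cluster 21 (54.4%) and CF cluster 18 (77.2%) held most of it. ATP1B1 was higher in CF progenitors on each of the 4 days, at 603 against 299 CPM at day 2 and 877 against 445 CPM at day 9, with ratios of 1.76 to 2.02. In ductal cells the ratio was 2.92, 1.48, 1.52 and 2.54 at day 2, 5, 7 and 9. With every cluster, CF ductal cells had 425, 635, 674 and 848 CPM on these days. WT ductal cells had 403, 584, 548 and 476 CPM in SOX2-low clusters and 71.4, 129, 126 and 182 CPM in SOX2-high ones. CF was thus less far above the SOX2-low cells than above all WT ductal cells on each day. The kept CF level at day 2 (386 CPM) was below these SOX2-low cells. In centroacinar cells CF was above WT at day 5, at 554 against 382 CPM, and below it at day 9, at 347 against 447 CPM (0.775, 0.757 to 0.793). At day 7 the centroacinar levels were 349 and 335 CPM in kept clusters, a ratio of 1.041 that fell to 0.953 with every cluster. Among progenitors the lowest CF cluster (601 CPM) was above the highest WT one (480 CPM), and all WT clusters of that class were SOX2-high.

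SCNN1A differed in opposite directions in centroacinar cells, where WT was higher, and in ductal cells, where CF was higher. In centroacinar cells WT had 157, 79.8 and 327 CPM at day 5, 7 and 9 and CF had 55.03, 10.4 and 34.4. At day 9 this was a CF to WT ratio of 0.105 (0.0992 to 0.111). The shared label may not mark like cells, since the study's centroacinar markers differed between the whole libraries of that day. PROM1 and S100A4 were at 343 and 286 CPM in WT and at 7.76 and 22.7 CPM in CF. KRT7 and WSB1 were higher in CF, and S100A6 was slightly lower. The WT level came mostly from SOX2-high clusters, which had 110 and 349 CPM at day 7 and 9 with every cluster. WT centroacinar cells of SOX2-low clusters had 26.5 CPM (83 cells) and 53.8 CPM (203 cells) on these days. CF had 10.5 and 33.8 CPM with every cluster. The CF level rested on single clusters: without CF cluster 15 it was 4.76 CPM at day 5, and without CF cluster 7 it was 2.16 CPM at day 9, whereas WT at day 9 kept 289 CPM without cluster 16 and 266 CPM without cluster 3. At day 9 WT clusters 3, 7 and 16 and CF clusters 3, 7 and 11 held most of the class, and at day 5 WT clusters 7 and 12 and CF clusters 0, 5 and 15. In ductal cells CF had 52.1, 88.3, 74.5 and 68.9 CPM and WT 39.1, 5.29, 9.20 and 28.5. The CF to WT ratio was 16.7 at day 5 (14.7 to 18.9), with 495 CF and 2929 WT cells, mostly of CF cluster 12 and WT clusters 2, 0 and 11. The kept CF ductal cells numbered 88 at day 7 and, of 284 before the check, 51 at day 9. With every cluster CF ductal cells had 107, 95.7, 176.2 and 172 CPM and WT 39.2, 5.60, 9.38 and 28.3, so that the CF level after day 5 was lower in the kept clusters and higher with every cluster.

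**Figure D2:**
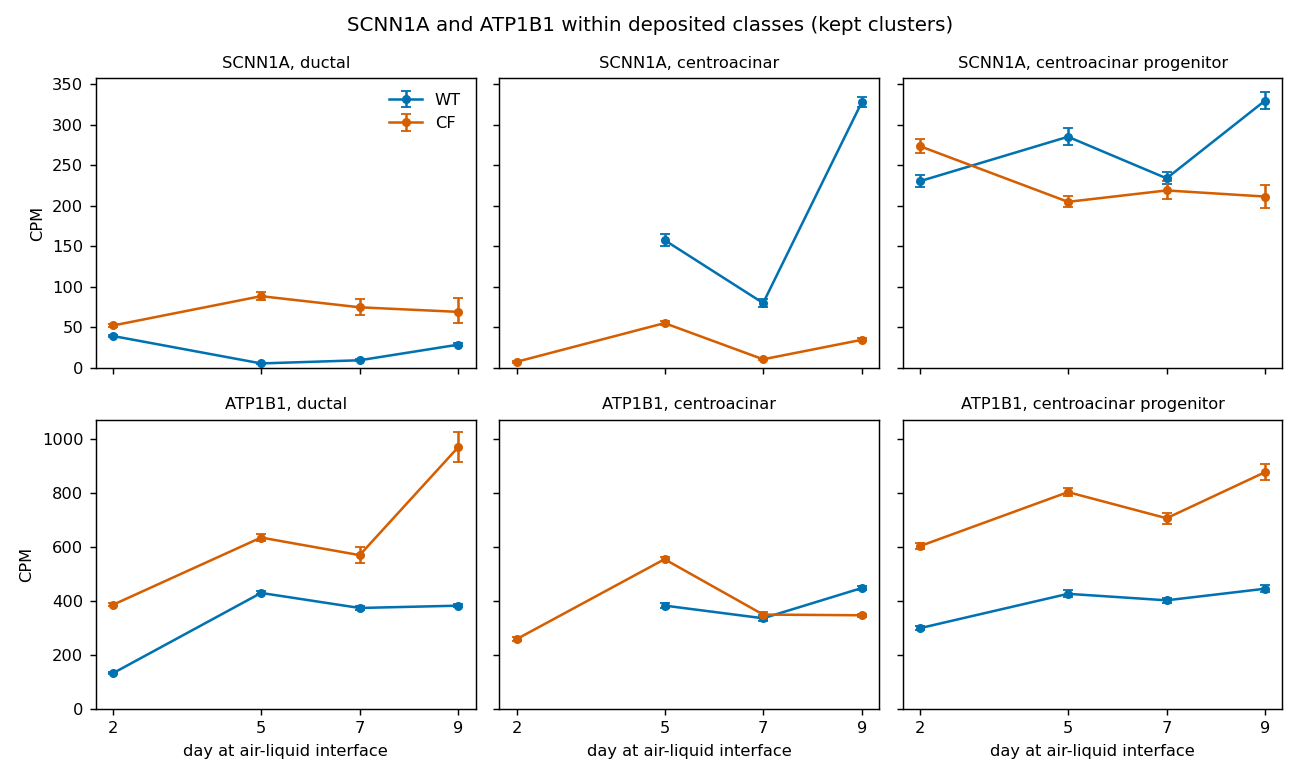
SCNN1A and ATP1B1 (CPM, linear axes from 0) by day within the deposited ductal, centroacinar and centroacinar progenitor classes, kept clusters only, with 95% Poisson intervals of 1 library each and classes under 50 cells left out. SCNN1A of centroacinar cells at day 9 is 327 CPM in WT and 34.4 CPM in CF, that of progenitors stays between 205 and 330 CPM in both genotypes, and ATP1B1 is higher in CF on all 4 days in progenitor and ductal cells but lower in CF centroacinar cells at day 9. WT levels here take SOX2-high and SOX2-low clusters together.

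The classes' shares of the cells moved beside these levels. Centroacinar cells went from 0.466% to 43.6% of WT cells between day 2 and day 9, and they held 67.0% of the WT SCNN1A UMIs at day 9, against 43.5% of all UMIs. In CF they went from 25.1% to 78.6% of cells and held 40.2% of the SCNN1A UMIs at day 9, against 78.7% of all UMIs. CF ductal cells held 33.0% of the SCNN1A UMIs at day 9 with 12.7% of all UMIs, and CF progenitors 26.8% with 8.52%. With each class weighted alike, SCNN1A in CF from day 2 to day 9 went from -0.75 to 0.09 on the log2 scale, and in the ductal class alone, every cluster included, it was 0.68 in CF and -0.46 in WT. In the ductal class as a whole the directions over time were thus the opposite of those in whole libraries in both genotypes, while in the progenitor class they were the same. The WT ductal fall was that of SOX2-high clusters, from 43.3 CPM at day 2 to 8.37 CPM at day 9. WT ductal cells of SOX2-low clusters, 1306 of 2152 at day 9, rose from 20.8 to 38.3 CPM, in the direction of the WT libraries. In CF centroacinar cells the direction was also the opposite of the CF libraries', from 7.79 CPM at day 2 to 33.8 CPM at day 9 with every cluster. The level was 54.4 and 10.5 CPM at day 5 and 7, so it did not rise steadily. The day 9 level rested on CF cluster 7, without which the kept clusters had 2.16 CPM, under the day 2 level. WT centroacinar cells at day 2 were too few for a level.

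In CF the clusters with most SCNN1G had little SCNN1A. Among kept CF clusters the gamma subunit was highest in centroacinar clusters 16 (40.1 CPM), 14 (37.7) and 0 (28.8), in which SCNN1A was at 1.57, 2.56 and 7.95 CPM. WT ductal clusters 8 and 0, both SOX2-low, had 22.9 and 22.3 CPM of SCNN1G and 5.40 and 4.03 CPM of SCNN1A. The WT cluster of 50 or more cells with most SCNN1G was cluster 38 (34.1 CPM), with 7 of its UMIs at day 9. Its SCNN1A lay from 10 to under 100 CPM, as did that of CF ductal cluster 26, which had 23.2 CPM of SCNN1G. Low SCNN1A did not always come with high SCNN1G, since CF cluster 20 had 8.48 and 2.05 CPM. In the 11 CF clusters with at least 100 CPM of SCNN1A the median of SCNN1G was 5.69 CPM, against 12.2 CPM in the 10 CF clusters under 10 CPM. In the 8 CF clusters between these limits it was 4.66 CPM. In WT the medians were 4.32 CPM over 12 clusters, 7.28 CPM over 13 and, between the limits, 0.435 CPM over 14, so SCNN1G did not fall steadily with rising SCNN1A. Across the 29 CF clusters with 50 or more cells, Pearson's r between SCNN1A and SCNN1G on the log2(CPM + 1) scale was -0.40, while r between SCNN1B and SCNN1G was 0.89. Across 39 WT clusters these were -0.00 and 0.35. SCNN1A and SCNN1G had an r of 0.59 among the 27 SOX2-high WT clusters and of -0.22 among the 12 SOX2-low ones. Clusters share libraries and differ in depth and day, so these values are descriptions. Between SCNN1G and ATP1B1, r was 0.77 over all WT clusters, 0.84 over the SOX2-high ones, -0.35 over the 12 SOX2-low ones and 0.25 in CF. Between SCNN1A and ATP1B1 it was 0.27 over all WT clusters and 0.63 in CF. Within the SOX2-high and the SOX2-low WT clusters it was 0.60 and 0.54, near the CF value.

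**Figure D3:**
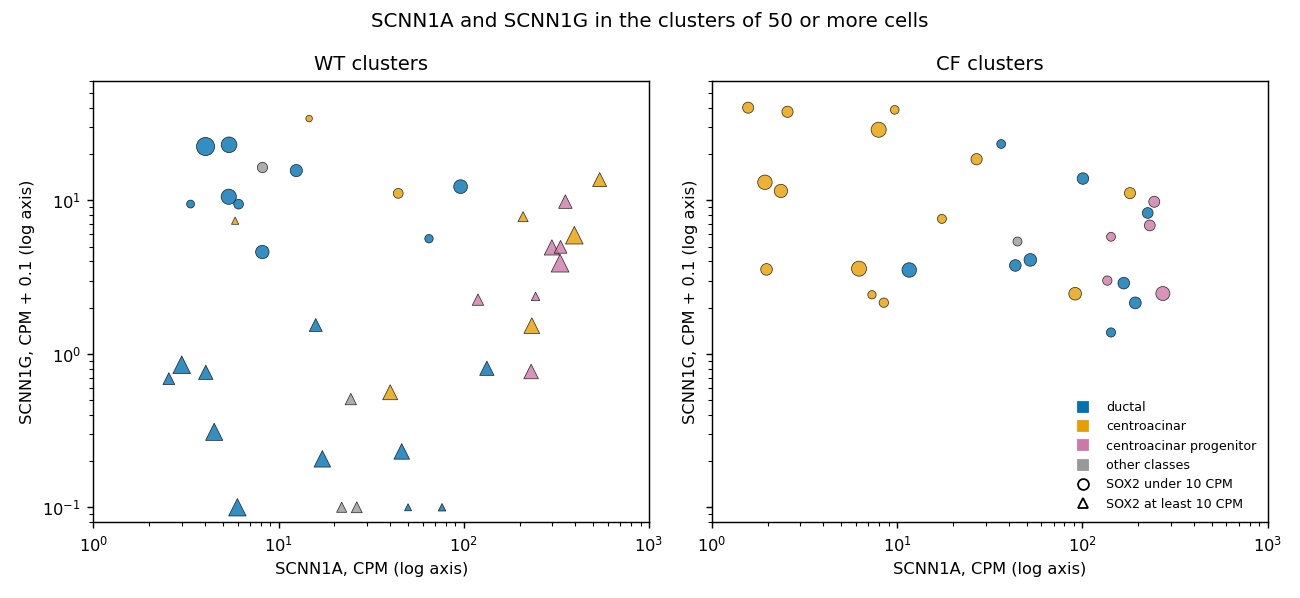
SCNN1A (CPM) against SCNN1G (CPM + 0.1), both on log axes, in the 39 WT and 29 CF clusters with 50 or more cells, with colour for the deposited class, symbol for SOX2 below or at least 10 CPM and point area for the number of cells. Centroacinar progenitor clusters lie to the right in both genotypes, at 119 CPM of SCNN1A or more, and the kept CF clusters highest in SCNN1G, at 40.1 and 37.7 CPM, have 1.57 and 2.56 CPM of SCNN1A.

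SCNN1B and SCNN1G parted in 1 set of WT cells. In the WT ductal cells of SOX2-high clusters, every cluster included, 178 UMIs of SCNN1B and 41 of SCNN1G were counted, so that SCNN1B made up 81.3% of both (75.5% to 86.2%). In WT ductal cells of SOX2-low clusters its share was 9.97% (8.56% to 11.5%), from 164 and 1481 UMIs. CF ductal, centroacinar and progenitor cells had 9.00%, 10.4% and 5.22%, near the SOX2-low WT cells. The contrast was as large with day 2 left out, at 85.4% and 10.3%. WT clusters 23, 2 and 5 carried it, with 6.48, 3.63 and 2.66 CPM of SCNN1B and 0.589, 0.749 and 0.210 CPM of SCNN1G. SCNN1A was also low in clusters 23, 2 and 5, at 2.55, 3.00 and 4.49 CPM. The leading genes of cluster 2 were those of extracellular matrix and contractile cells, such as FN1, SPARC and TAGLN. The part of such genes in this result was not tested.

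**Figure D4:**
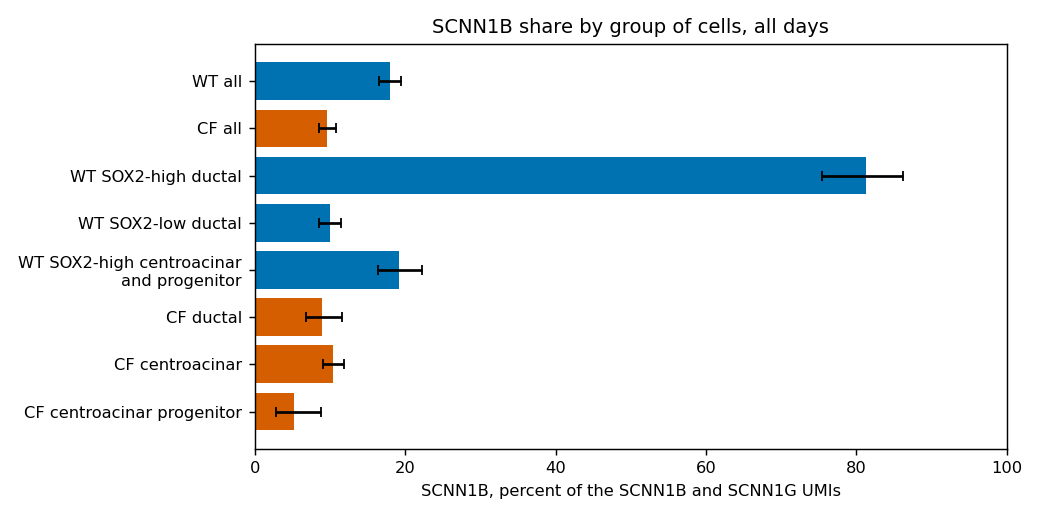
SCNN1B as a percent of the UMIs of SCNN1B and SCNN1G by group of cells over all days, with 95% Clopper-Pearson intervals; WT in blue, CF in orange. The share is 81.3% in SOX2-high WT ductal cells and at most 19.2% in the other groups of cells shown.

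To compare detection between libraries, each cell was thinned to 3000 UMIs, and the 39 to 411 shallower cells of a library were left out. SCNN1A was then seen in 13.3%, 18.3%, 21.3% and 38.7% of WT cells and in 19.6%, 18.9%, 14.5% and 13.5% of CF cells at day 2, 5, 7 and 9. Without thinning these were 38.1%, 36.3%, 44.6% and 61.9%, and 50.4%, 47.7%, 27.6% and 34.4%. No cell type here is known to lack the gene, so the lowest clusters serve as the comparison: CF cluster 5 had SCNN1A in 1 of 556 thinned cells (0.180%) with a median depth of 23286 UMIs, and WT cluster 16 in 77.8% with 10514.5 UMIs. Within 1 library, CF day 5, SCNN1A was at 2.35 CPM in cluster 5 (1.52 to 3.47) and at 182 CPM in cluster 15 (174 to 191), with median depths of 22651 and 31278.5 UMIs. SCNN1G reached at most 6.02% of thinned cells (CF day 7) and SCNN1B at most 0.777% (WT day 9), while ATP1B1 was in 29.9% of WT cells at day 2 and in 59.6% to 77.4% elsewhere.

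Detection of all 3 channel subunits in 1 cell was rare. Without thinning it was seen in 36 of 21600 WT cells (0.167%) and in 32 of 11345 CF cells (0.282%), and at 3000 UMIs in 0 of 21161 WT cells and 1 of 10626 CF cells. At these levels of SCNN1B a cell that expresses it will often show no UMI, so its absence from a cell's counts says little. Among CF cells with an SCNN1B UMI, 42.1% also had SCNN1G (36.0% to 48.5%), against 14.7% of CF cells without one. In WT these shares were 16.8% (13.6% to 20.5%) and 8.002%. At 3000 UMIs, 2 of the 25 CF cells with SCNN1B had SCNN1G (0.984% to 26.0%) against 2.91% of the others, and in WT it was 2 of 100 cells (0.243% to 7.04%) against 1.66%, so the association was not detectable at that depth. The days differ in the levels of both genes, and library by library the share with SCNN1G was higher in the cells with SCNN1B in all 4 WT libraries and in CF at day 5, 7 and 9. WT day 2 rested on 1 of 11 cells, and its interval (0.230% to 41.3%) and that of WT day 7 (8.82% to 20.5%) held the share of the others. Except at WT day 2 the cells with SCNN1B were also deeper in the median, as at CF day 7 (28038.5 against 23340 UMIs). At day 2 in CF, none of 17 cells with SCNN1B had SCNN1G, against 5.62% of the others. For SCNN1A the direction differed between libraries. In WT it was in 81.8% of the 11 cells with SCNN1B at day 2 (48.2% to 97.7%) and in 38.0% of the others. At day 5 in WT it was in 15.3% (9.98% to 22.1%) and 36.9%. In CF it was in 64.7% of 17 such cells at day 2, with an interval (38.3% to 85.8%) that held the 50.3% of the others. At day 9 in CF the shares were 11.3% and 34.9%.

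Other genes of sodium transport were counted from fixed lists of 42, of which 31 had at least 30 UMIs. On the log2(CPM + 1) scale none of the 31 was at least 2-fold apart in 1 direction on all 4 days, although by the ratio of CPM HSD11B2 was. At day 2, 5, 7 and 9, 1, 1, 0 and 2 of them were at least 2-fold higher in CF (over all genes 3.59%, 2.15%, 4.47% and 3.23%) and 1, 1, 1 and 2 lower (3.83%, 4.13%, 2.95% and 3.42%), with medians of 0.13, -0.07, 0.18 and 0.01 beside medians of all genes of -0.00, -0.04, 0.10 and 0.06. From day 2 to day 9, 7 were higher and 4 lower in WT (7.36% and 4.77% of all genes), and 3 were higher and 3 lower in CF (6.04% and 2.5%). SPINT1, SPINT2 and TSC22D3 in WT and ST14 and TMPRSS2 in CF over time, and SPINT2 between the genotypes at day 9, were no longer 2-fold higher with TMM or DESeq2 factors. At day 2 HSD11B2 (1.035 and 1.04 with these factors) and, with DESeq2 factors, SLC9A2 came to be at least 2-fold higher in CF.

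The FXYD proteins modulate the pump, and FXYD3 was the one with most UMIs, at 1505 to 1799 CPM in WT and 1947 to 2410 CPM in CF, higher in CF on each day by 0.37 to 0.46. FXYD5 lay at 73.9 to 113 CPM. FXYD6 was the 1 pump modulator past 2-fold, at 0.0175, 4.63, 4.59 and 6.05 CPM in WT and 0.0782, 0.0140, 0.461 and 0.840 CPM in CF, with differences of -2.47, -1.94 and -1.94 at day 5, 7 and 9. SCNN1D, the fourth channel subunit, never passed 0.665 CPM.

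Among the proteases and their inhibitors, ST14 and TMPRSS2 were at least 2-fold higher at day 9 than at day 2 in both genotypes, and TMPRSS4 at least 2-fold lower (-2.30 in WT and -1.57 in CF). In CF both increases fell short of 2-fold with TMM factors, at 0.74 for ST14 and 0.93 for TMPRSS2. PRSS8 (prostasin) had 24.2 to 37.2 CPM in WT and 30.8 to 39.6 in CF. ST14 (matriptase) went from 24.9 to 83.4 CPM in WT and from 35.6 to 72.5 CPM in CF, and its inhibitor SPINT1 from 63.2 to 134 and from 80.0 to 107 CPM. SPINT2, which inhibits prostasin and other serine proteases, was at 72.6 CPM in WT and 148 CPM in CF at day 9, a difference of 1.02 that fell to 0.89 with TMM factors. TMPRSS2 was lower in CF on each day, with 196 CPM in WT and 75.9 CPM in CF at day 9 (-1.36, or -1.48 with TMM and -1.46 with DESeq2 factors).

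Among the regulators, SGK1, the aldosterone-induced kinase that keeps the channel at the surface, moved apart between the genotypes. It fell in WT from 65.5 CPM at day 2 to 30.9, 39.1 and 31.01, and in CF it was at 60.003, 66.0, 77.1 and 73.3, at least 2-fold above WT at day 5 and day 9. NEDD4L, the ubiquitin ligase that removes the channel and is inhibited by SGK1, lay at 24.9 to 39.9 CPM in WT and 30.001 to 51.0 in CF. The glucocorticoid receptor gene NR3C1 had 25.1 to 36.2 and 30.5 to 39.9 CPM. The mineralocorticoid receptor gene NR3C2 had 10.7, 12.02, 13.6 and 16.1 CPM in WT and 7.40, 12.8, 11.2 and 8.88 CPM in CF. HSD11B2, which shields that receptor from cortisol, was at 0.358, 0.662, 0.699 and 0.602 CPM in WT and at 1.71, 2.20, 1.58 and 1.3997 CPM in CF. It was higher in CF 4.78-fold (3.39 to 6.89), 3.32-fold (2.48 to 4.48), 2.26-fold (1.54 to 3.33) and 2.33-fold (1.60 to 3.41) at day 2, 5, 7 and 9.

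**Figure D5:**
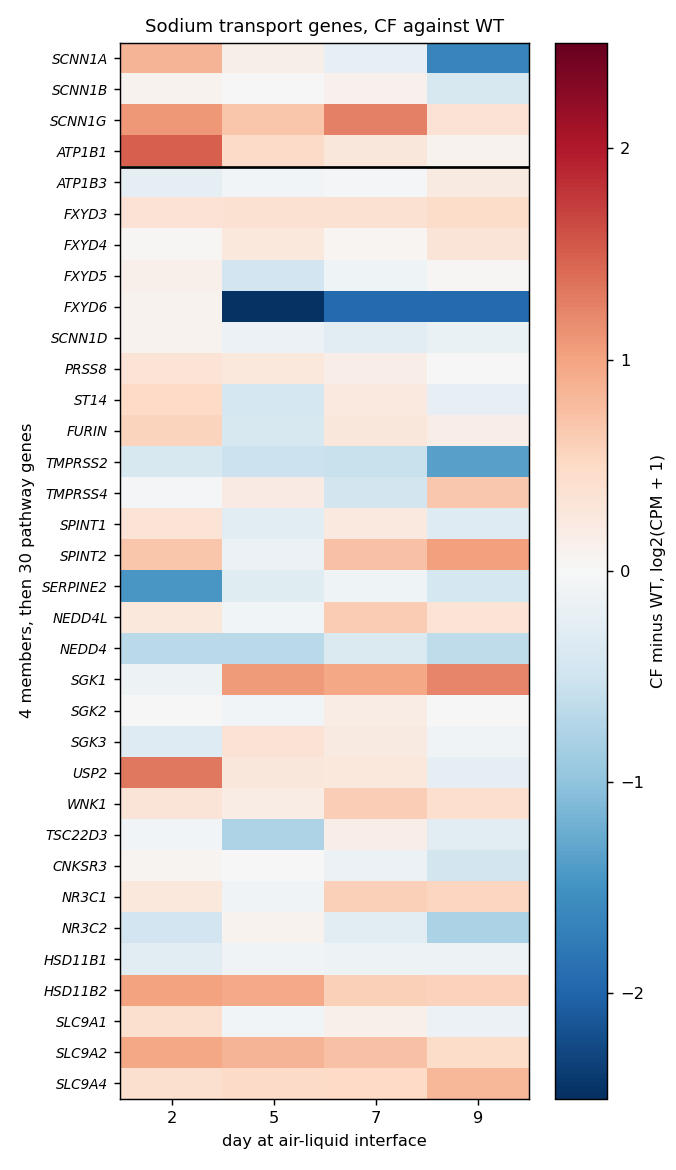
Log2(CPM + 1) of CF minus that of WT at each day for the 4 members (above the line) and 30 of the 31 pathway genes with at least 30 UMIs, red for higher in CF and blue for lower, with the colour scale ending at 2.5 on either side. The colours of most genes change or stay pale across days, SGK1 is red from day 5 on, and FXYD6 is the darkest blue, at -2.47 at day 5.

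The genes whose levels were most like a member's over the 68 clusters with 50 or more cells were named by Pearson's r on the log2(CPM + 1) scale, among 12912 genes with at least 300 UMIs. For SCNN1A these were MUC1 (0.95), CXCL17 (0.95), GPD1L (0.95), LOC101684959 (0.94) and ACSL1 (0.94). MUC1, a membrane mucin, is one of the genes by which the study recognised progenitors in these libraries. SCNN1G was most like SMAD9 (0.85), FGFR3, ROS1, SBSPON and EPB41L4B (0.82), and ATP1B1 most like SYT16 (0.89), BCAS1, AP1S3, LGALS9 and SORBS2 (0.87). SCNN1B, with few UMIs, had its highest values with ZFAND4 (0.73), LOC101691226, LOC123390206 and TBC1D32 (0.68). Clusters of 1 genotype share libraries, so these values carry no p.

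Along the lineages that the authors had fitted, the members differed in how their levels at the end stood to those at the start, each lineage cut into 5 bins of equal cell number. SCNN1G was at least 2-fold higher in the last bin in 10 of 15 WT and 9 of 13 CF lineages and at least 2-fold lower in none. ATP1B1 was higher in 11 of 15 and 6 of 13, and lower in none. SCNN1A went both ways, up in 10 and down in 4 of the WT lineages and up in 6 and down in 2 of the CF ones. In WT lineage 7 it went from 10.3 to 476 CPM, and in WT lineage 1 from 20.0 to 3.90 CPM while SCNN1G went from 0.0599 to 20.2 CPM. In CF lineage 8 SCNN1A stayed at 4.14 and 3.07 CPM while SCNN1G went from 3.22 to 42.7 CPM. Lineages share most of their early cells, and day changes along them (the first bin of WT lineage 1 was 99.3% day 2 cells), so they are not independent of one another or of time.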

How the data were processed

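The authors counted UMIs with Cell Ranger 5.0.1 on ASM1176430v1.1 and deposited whole UMI counts of 27912 genes in 44243 barcodes. Their Seurat filters were 200 genes or more and a mitochondrial share up to 20%, followed by DoubletFinder, so no doublet caller was run here. Their deposited cell table gave the library, cluster, class, UMI counts and percent of mitochondrial UMIs for 32945 cells, of which 32868 had a total within 0.1% of the matrix. A further deposited table held slingshot scores, which are pseudotimes. The deposited normalized values were not used.

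Retained cells were summed and scaled to CPM (pandas 2.3.3, scipy 1.17.1). Differences were log2 of CPM plus 1, and a gene needed 30 UMIs in all. Alternatives were TMM factors (edgeR 4.0.16), DESeq2 1.42.0 size factors, a pseudocount of 5, other sets of cells and other weights. Interval code was tested on simulated data. A cluster was kept unless its 10 leading genes (by fold over the other clusters of the genotype, at 10 CPM or more) named another class more often than its own, or it was shallow (under 1 part in 3 of its libraries' median depth) and led by no marker of its class. The SOX2 limit of 10 CPM came from an earlier analysis and was set after values had been seen. The members and lists were chosen with earlier results of these data known. Genes were named by a rule: the 4 members, 14 listed pathway genes, pathway genes apart on all 4 days, and the 5 genes most like each member. Other genes named (FXYD6, TMPRSS2, TMPRSS4, TSC22D3, SLC9A2, USP31, NME7, ionocyte genes and cluster leaders) were chosen after their values were seen. A few genes that these rules named are not reported here.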

Additional observations from a re-analysis of the deposited data

Results flagged for a closer look

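SCNN1A moved in opposite directions in the genotypes between day 2 and day 9, by 1.73 in WT and by -0.75 in CF on the log2(CPM + 1) scale. Each genotype had 1 library a day, so the difference between these changes was not tested. In WT the level was higher at each later day and in CF it was lower at each later day.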

How the results depend on the processing

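With 1 library for each genotype and day, no result has a replicate check, and the intervals cover counting error only. No paired analysis was possible because the labels give no replicate numbers that groups share. Genotypes were compared within each day, and the 4 days were not treated as replicates. All values below are log2(CPM + 1), and the causes of the changes were not tested. The alternatives were set with earlier results known, and leaving single clusters out of the centroacinar class was chosen after seeing the data. Of 100 alternative values of the 12 mean and time differences, 58 stayed within counting error, 33 moved and 9 changed sign. Of 252 others, 129 stayed, 106 moved and 17 changed sign.

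For SCNN1A, CF minus WT over the 4 days was -0.22 as reported, -0.31 with TMM factors, -0.28 with DESeq2 size factors, -0.50 with each cell weighted alike, -0.30 with all deposited barcodes, -0.11 with each class weighted alike, 2.99 in the ductal class alone and 2.30 against WT cells of SOX2-low clusters. By day it changed sign at day 5 with each cell (-0.13) or class (-0.40) weighted alike, at day 7 in the ductal class (4.09), with each class weighted alike (0.17) and against SOX2-low cells (2.55), and at day 9 in the ductal class (2.56) and against SOX2-low cells (0.70). The WT change with time of 1.73 was 1.67 with a pseudocount of 5, 1.54 with TMM, 1.57 with DESeq2, 1.92 by cell, 0.47 by class and -0.46 in the ductal class. The CF change of -0.75 was -1.02, -0.99 and -0.67 with TMM, DESeq2 and by cell, 0.095 by class and 0.68 in the ductal class. The SCNN1B change in WT of 1.4998 was 0.48 with a pseudocount of 5.

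For SCNN1G, CF minus WT of 0.85 was 0.54 with a pseudocount of 5, 1.03 by cell, 0.39 in the ductal class and -0.24 against SOX2-low cells, where it was -0.58, -0.17 and -0.52 at day 2, 5 and 9. In the ductal class with every cluster it was -0.27 at day 9. Its WT change of 2.57 was 1.32 with a pseudocount of 5, and its CF change of 1.86 was 1.175 with that pseudocount, 1.635 with TMM, 1.639 in the ductal class and 1.63 by class.

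For ATP1B1, CF minus WT of 0.59 was 0.50 with TMM, 0.53 with DESeq2, 0.55 with all barcodes, 1.07 in the ductal class, 0.80 by class and -0.055 against SOX2-low cells, where it was -0.20 at day 7 and -0.13 at day 9. At day 9 it was -0.035 with TMM and -0.011 with DESeq2, and in centroacinar cells at day 7 it was -0.069 with every cluster. Its WT change of 1.53 was 1.34 with TMM, 1.37 with DESeq2, 1.51 in the ductal class and 0.96 by class. Its CF change of 0.13 was -0.14 with TMM, -0.11 with DESeq2, 0.99 in the ductal class and 0.70 by class.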
